A study of Mus musculus with 24 samples.

Results

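The HoxD cluster of the mouse, with the gene deserts on either side of it, was described in 4 peak lists of H3K27ac, an acetylation of histone H3 found at active promoters and enhancers. The members were the 10 genes Evx2, Hoxd13, Hoxd12, Hoxd11, Hoxd10, Hoxd9, Hoxd8, Hoxd4, Hoxd3 and Hoxd1, out of 21887 protein-coding genes. The region held every peak over the cluster, from the outer end of Evx2 to the outer end of Hoxd1 (mm10, chromosome 2, 74652989 to 74765142, 112.2 kb), and over 1 Mb on each side. It contained 84 of 36045 peaks in the control list of embryonic day E11.5 and 65 of 32821 in that of E12.5. It contained 68 of 28419 peaks in the Sox9null-labelled list and 80 of 36937 in the Sox9cKO-labelled list.

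The study profiled histone marks in mouse embryonic limb buds by chromatin immunoprecipitation and sequencing, to compare embryos with and without SOX9, the transcription factor of early cartilage. The H3K27ac groups were control at E11.5, Sox9null at E11.5, control at E12.5 and Sox9cKO at E12.5, with 1 library in each and no replicate. No difference between groups could therefore be tested, and no p-value is given. The sources used here name no driver of the conditional deletion, no alleles of the controls, no strain and no number of pooled embryos. Sox9null occurs at E11.5 alone and Sox9cKO at E12.5 alone, so among the deficient lists the stage cannot be told apart from the kind of deletion. The deposited names of the lists of the 2 deficient samples are crossed against the sample titles: the sample titled Sox9cKO at E12.5 carries a list named for Sox9null at E11.5, and the reverse. The titles give the labels used here, and the comparisons of deficient with control lists are also given as the deposited names have it.

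The genes of the HoxD cluster encode homeodomain transcription factors that pattern the limb, and they are used in the order in which they lie on the chromosome. In the mouse limb the desert beyond Hoxd1 holds enhancers that act early and in the proximal limb, on genes from Hoxd1 to about Hoxd11. The desert beyond Evx2 holds enhancers that act later, in the digits, mainly on Hoxd13 and its neighbours. Evx2, a homeobox gene beside Hoxd13, shares the digit enhancers of that desert.

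The promoters of 4 members show the contrast that the cluster holds in every list. The windows over the starts of Hoxd13 (chr2:74667975-74668274) and Hoxd3 (chr2:74711743-74712042) lay wholly under peaks in all 4 lists. Those of Hoxd4 (chr2:74721728-74722027) and Hoxd1 (chr2:74762730-74763029) lay under none. Each runs from 250 bases before to 50 bases after the gene's start on the + strand (RefSeq, GRCm38.p6, the build of mm10), with CG dinucleotides in capitals.
Hoxd13: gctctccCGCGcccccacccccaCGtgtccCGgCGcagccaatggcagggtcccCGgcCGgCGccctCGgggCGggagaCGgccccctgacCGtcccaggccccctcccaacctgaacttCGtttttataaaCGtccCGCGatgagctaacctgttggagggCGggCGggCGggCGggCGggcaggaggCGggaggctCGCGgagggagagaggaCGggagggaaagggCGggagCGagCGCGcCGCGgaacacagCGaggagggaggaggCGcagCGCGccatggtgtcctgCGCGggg
Hoxd3: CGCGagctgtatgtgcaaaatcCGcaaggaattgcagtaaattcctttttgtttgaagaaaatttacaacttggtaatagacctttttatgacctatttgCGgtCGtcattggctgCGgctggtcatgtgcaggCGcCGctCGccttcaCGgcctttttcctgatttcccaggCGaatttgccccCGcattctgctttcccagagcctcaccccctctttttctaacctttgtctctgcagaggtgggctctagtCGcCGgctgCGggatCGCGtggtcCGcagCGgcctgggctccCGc
Hoxd4: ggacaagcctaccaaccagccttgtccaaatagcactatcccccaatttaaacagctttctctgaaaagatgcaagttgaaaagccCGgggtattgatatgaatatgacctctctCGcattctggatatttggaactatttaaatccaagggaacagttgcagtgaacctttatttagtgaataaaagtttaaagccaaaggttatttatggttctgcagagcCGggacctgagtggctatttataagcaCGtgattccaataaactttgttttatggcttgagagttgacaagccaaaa
Hoxd1: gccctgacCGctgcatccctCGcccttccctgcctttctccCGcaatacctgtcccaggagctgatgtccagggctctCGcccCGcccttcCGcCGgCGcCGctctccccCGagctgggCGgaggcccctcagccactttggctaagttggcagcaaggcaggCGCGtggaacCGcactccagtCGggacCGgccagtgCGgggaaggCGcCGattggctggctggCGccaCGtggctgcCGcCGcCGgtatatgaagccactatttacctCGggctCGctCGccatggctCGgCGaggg

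The Hoxd13 window held 37 CG dinucleotides at 74.3% G+C, and that of Hoxd3 held 20 at 54.0%. The unmarked window of Hoxd4 held 4 at 39.7%, but the unmarked window of Hoxd1 held 29 at 69.7%. The median over 32851 mouse promoters was 7 CG dinucleotides and 52.7% G+C, so CG content did not separate the marked from the unmarked windows among these genes. RefSeq gave 11 promoter windows for the 10 members, since Hoxd11 has a pair, and 9 of them lay wholly under peaks in all 4 lists. The core letters ACAAT bound by SOX factors, searched on both strands, occurred in the windows of Evx2, Hoxd10 and Hoxd8, and in 31.0% of all promoters. None of the 4 windows printed held them, or GACCACCCA of the GLI factors, or TCGTAAA of the HOX13 factors. Among the windows not printed, 1 of Hoxd11 held TCGTAAA, on the other strand as TTTACGA. That motif occurred in 0.597% of all promoters.

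The lists themselves differed in breadth. Median peak width was 1141 bp in the control E11.5 list, 1707 bp in the control E12.5 list, 1778 bp in the Sox9null-labelled list and 1332 bp in the Sox9cKO-labelled list, and the length under peaks ran from 52.0 to 66.7 Mb. How deeply each library was sequenced is unknown, and peak number and width move with depth. All 4 limb mesenchyme markers (Prrx1, Prrx2, Twist1, Msx1) had peaks in every list, and Neurog2, Sox1 and Olig2 of the neural tube had none over their gene bodies. The forelimb gene Tbx5, with 20 kb on each side, had 31.7 kb under peaks in the control E11.5 list and 32.6 kb in the Sox9cKO-labelled list, but 3.76 kb in the control E12.5 list and 0 kb in the Sox9null-labelled list. The hindlimb genes Tbx4 and Pitx1 divided the lists in the direction opposite to Tbx5. Tbx4 had 29.7 kb in the control E11.5 list and 31.89 kb in the Sox9cKO-labelled list. It had 34.35 kb in the control E12.5 list and 38.1 kb in the Sox9null-labelled list. Pitx1 had 16.0 to 18.3 kb, and both values of the control E12.5 and Sox9null-labelled lists lay above both others. Each of the 4 limb mesenchyme markers divided the lists in that direction too, so it was not particular to the hindlimb genes. Their sums were 67.0 kb in the control E11.5 list and 78.0 kb in the Sox9cKO-labelled list, and 84.1 kb in each other list. Summed markers of several other cell types divided the lists as Tbx5 did. Summed over 3 genes each, in the order control E11.5, Sox9cKO, control E12.5 and Sox9null, skeletal muscle had 3.75, 6.46, 0 and 0 kb, endothelium 6.46, 5.40, 2.43 and 1.24 kb, erythroid cells 12.2, 12.6, 4.88 and 6.51 kb, and neural cells 0.683, 0.83, 0 and 0 kb. Ectoderm did not divide so, with 5.61, 7.07, 8.46 and 2.99 kb. Within the sums that did, Tal1, Cdh5, Tie1, Myf5 and Pax3 each divided the lists so, and the neural sum was Sox1 alone. Gata1 (1.82, 2.15, 1.01 and 2.06 kb), Klf1 (4.02, 4.93, 3.87 and 4.45 kb) and Kdr (1.48, 0.692, 0.738 and 0 kb) did not. The erythroid division thus rested on Tal1, with 6.34, 5.54, 0 and 0 kb. Myod1 had no peak over its body in any list. The part of these markers and of Tbx5 in the HoxD differences below was not tested. Limb buds are mixed tissue, so fewer cells of a type and less mark per cell cannot be told apart.

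The cluster was among the most densely marked stretches of the genome in every list. Peaks covered 59.5 kb of it (53.0%) in the control E11.5 list, 53.1 kb (47.4%) in the control E12.5 list, 50.2 kb (44.7%) in the Sox9null-labelled list and 61.1 kb (54.5%) in the Sox9cKO-labelled list. Among 24250 genome windows of the same length, 1, 18, 20 and 3 respectively were covered by more, and the median window had 0 kb. The peak over Hoxd13 to Hoxd10 was the 2nd widest of its list each time, at 36.3 kb in the control E11.5 list, 53.0 kb in the control E12.5 list, 47.5 kb in the Sox9null-labelled list and 39.6 kb in the Sox9cKO-labelled list. For comparison, the HoxA cluster was covered over 56.5 to 60.1% of its length, the HoxC cluster over 38.6 to 49.7% and the HoxB cluster over 2.91 to 15.1%.

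**Figure D1:**
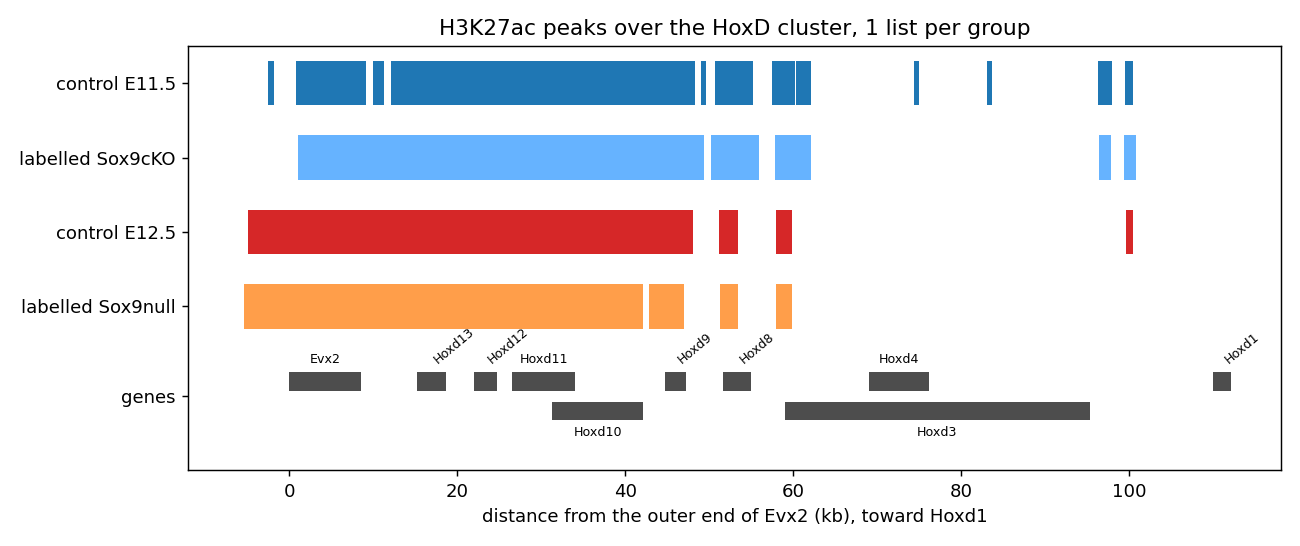
Peaks over the HoxD cluster in each list, drawn to scale as bars against distance in kb from the outer end of Evx2, with the 10 genes below. The lists are ordered by the stage in their deposited names. The run from Evx2 to Hoxd9 is covered in all 4, the bars over Hoxd8 and Hoxd3 are longer in the control E11.5 list and the Sox9cKO-labelled list, and Hoxd1 has no bar in any list.

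The posterior genes, Hoxd13 to Hoxd10, which pattern the forearm and digits, lay entirely under peaks in all 4 lists. Evx2 was covered over 90.1% of its body in the control E11.5 list, 88.5% in the Sox9cKO-labelled list and 100% in the others. Hoxd9, a gene of the upper limb segment, was covered over 89.7% in the Sox9null-labelled list and 100% in the others. Across the segment from Evx2 to the end of Hoxd9 (47.2 kb), peaks covered 94.9% in the control E11.5 list, 100% in the control E12.5 list, 98.0% in the Sox9null-labelled list and 97.8% in the Sox9cKO-labelled list. Coverage of this segment was near complete throughout, so covered length could show little further gain there.

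The lists parted over the anterior genes. Hoxd8 was covered over 100% of its body in the control E11.5 list and the Sox9cKO-labelled list, over 54.3% in the control E12.5 list and over 52.4% in the Sox9null-labelled list. Hoxd3, whose long annotated body spans Hoxd4, was covered over 11.6%, 8.47%, 2.31% and 2.22% in that same order of lists. Hoxd4 carried 1 peak of 583 bp, in the control E11.5 list alone, with a score of 50.93 near the lowest of that list. The Hoxd1 body carried none. From the end of Hoxd9 to the end of Hoxd1 (64.9 kb, a split made after the values were seen), peaks covered 14.7 kb in the control E11.5 list, 15.0 kb in the Sox9cKO-labelled list, 5.92 kb in the control E12.5 list and 3.87 kb in the Sox9null-labelled list. This anterior stretch held 24.7%, 24.5%, 11.1% and 7.72% of the covered length of the cluster, in that order.

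**Figure D2:**
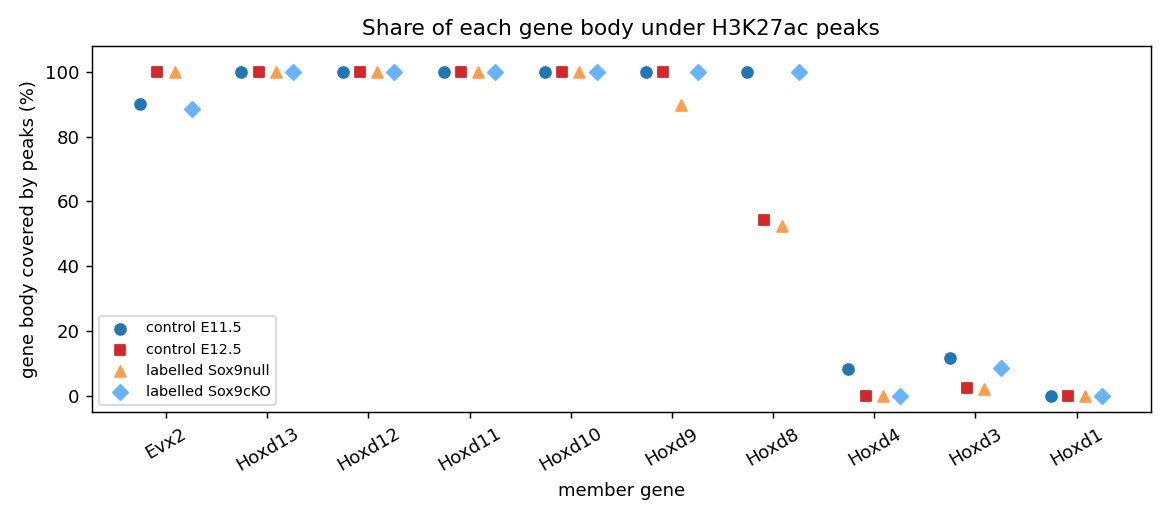
Share of each gene body under H3K27ac peaks (%), with the members in the order Evx2 to Hoxd13 and on to Hoxd1 and 1 point per list, no error being available with 1 library per group. Hoxd13 to Hoxd10 sit at 100% in all 4 lists, Hoxd8 at 100% in the control E11.5 list and the Sox9cKO-labelled list against 54.3 and 52.4% in the others, and Hoxd1 at 0.

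The scores, which are the authors' own and are comparable only within a list, ordered the members in a like way. In the control E11.5 list the peaks over Evx2, over Hoxd13 to Hoxd9 and over Hoxd8 all carried the tied value of 3100, and the peak at the start of Hoxd3 carried 1679. In the Sox9cKO-labelled list the same 3 peaks carried 3100 and the Hoxd3 peak 3034. In the control E12.5 list the posterior peak carried 2944, the Hoxd8 peak 615 and the Hoxd3 peak 370. In the Sox9null-labelled list those values were 2218, 299 and 209. Many peaks carry the value of 3100, among them those over Hnrnpa3 and Nfe2l2. Below it lay 95.2% of peaks in the control E11.5 list and 92.1% in the Sox9cKO-labelled list. The tie therefore could not rank Hoxd8 against the posterior genes in the first pair of lists. In the second pair Hoxd8 ranked below them.

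Between Hoxd3 and Hoxd1 lies Haglr, an annotated long noncoding RNA gene, and small peaks over it followed the same division in part. A peak at 74749321 to 74750909 was present in the control E11.5 list (score 551) and in the Sox9cKO-labelled list (score 519) and in neither other list. Its neighbour at 74752383 to 74753836 was present in 3 lists and absent from the Sox9null-labelled list, and its score in the control E12.5 list was 62.75, near the lowest. Within 1 kb of a gene end, 8 of the 10 members had a peak in every list, and Hoxd4 and Hoxd1 had none in any.

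The active domain was taken as the run of peaks over the cluster joined across gaps of up to 5 kb. It measured 64.6 kb in the control E11.5 list, 64.7 kb in the control E12.5 list, 65.2 kb in the Sox9null-labelled list and 61.1 kb in the Sox9cKO-labelled list, and it touched the 8 genes from Evx2 to Hoxd3, leaving Hoxd4 and Hoxd1 outside. With gaps joined up to 5 kb its length hardly varied, but it was shifted. The border on the Evx2 side lay 2.52 kb beyond the outer end of Evx2 in the control E11.5 list, 4.89 kb beyond it in the control E12.5 list, 5.37 kb beyond it in the Sox9null-labelled list, and 0.982 kb inside the gene in the Sox9cKO-labelled list. In the control E11.5 list that border rested on a separate peak beyond Evx2, and the peak over the gene itself began at 74653830.

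The border on the Hoxd1 side lay within Hoxd3 in every list. It fell at 74715091 in the control E11.5 list and 74715066 in the Sox9cKO-labelled list, 3.10 and 3.07 kb past the start of Hoxd3. It fell at 74712831 in the control E12.5 list and 74712799 in the Sox9null-labelled list, 0.838 and 0.806 kb past it. The distance left to Hoxd4 was thus 6.89 and 6.91 kb in the first pair and 9.15 and 9.18 kb in the second. The position was almost the same within each pair, and the pairs differed from each other by over 2 kb.

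The gaps on either side of Hoxd8 were wider in the second pair. Between Hoxd9 and Hoxd8 lay an uncovered gap of 3.04 kb in the control E12.5 list and 4.35 kb in the Sox9null-labelled list, against 0.797 kb in the Sox9cKO-labelled list and pieces of at most 1.08 kb in the control E11.5 list. Between Hoxd8 and Hoxd3 the gap was 4.51 and 4.62 kb in the second pair and 2.16 and 1.93 kb in the control E11.5 list and the Sox9cKO-labelled list. In other places the control E11.5 list was the more broken, with 8 peaks in its domain and a gap of 2.61 kb beside Evx2, against 3 or 4 peaks in the other lists. When only gaps of up to 2 kb were joined, the domain ended at 74701086 and 74699956 near Hoxd9 in the second pair, at 74708233 near Hoxd8 in the control E11.5 list, and still in Hoxd3 at 74715066 in the Sox9cKO-labelled list.

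With 20 kb added on each side, so that nearby elements counted too, the members formed a slope along the cluster. Evx2 had 26.9 kb under peaks in the control E11.5 list, 33.4 kb in the control E12.5 list, 33.9 kb in the Sox9null-labelled list and 27.5 kb in the Sox9cKO-labelled list. Hoxd13 had 36.9, 43.4, 43.4 and 37.6 kb in that order. These 2 genes, next to the desert beyond Evx2, were higher in the control E12.5 list and the Sox9null-labelled list, and the values of the pairs did not overlap. Hoxd12 had 41.1, 42.7, 42.0 and 42.6 kb, with no division of the pairs. Hoxd11 had 44.2, 43.8, 41.8 and 46.6 kb, Hoxd10 had 46.0, 41.0, 38.9 and 48.1 kb, Hoxd9 had 33.3, 27.5, 25.4 and 34.6 kb, and Hoxd8 had 26.96, 20.7, 18.5 and 27.7 kb. Hoxd3 had 22.9, 14.1, 11.2 and 23.2 kb, Hoxd4 had 11.0, 4.19, 3.87 and 10.4 kb, and Hoxd1 had 2.57, 0.855, 0 and 2.84 kb. From Hoxd11 to Hoxd1 the order was the opposite, with the control E11.5 list and the Sox9cKO-labelled list above both others at each of 7 genes. These windows overlap, so the 10 genes are not 10 separate measurements.

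A gene was called where its covered length differed by 1.5-fold or more and by at least 1 kb. From control E11.5 to control E12.5, Hoxd4, Hoxd3 and Hoxd1 were called with less coverage and no member with more, beside 6.62% of 16296 genes called with less and 10.4% with more. The median difference over the 10 members was -3.36 kb, against 0.130 kb over all genes. In the Sox9null-labelled list the same 3 members had less coverage than in control E11.5 and none had more, beside 9.22% and 7.02% of genes, with medians of -4.83 and 0.034 kb. In the Sox9cKO-labelled list they had more coverage than in control E12.5 and none had less, beside 12.0% and 7.18%, with medians of 4.48 and 0.211 kb. By title, then, the anterior genes differed from control in opposite directions at the 2 stages.

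Compared as the deposited names have it, no member was called in either comparison. The Sox9cKO-labelled list against control E11.5 gave 0 members in each direction (8.0% of genes with more and 1.5% with less) and a median of 0.692 kb, against 0.368 kb over all genes. The Sox9null-labelled list against control E12.5 gave 0 members (2.69% and 7.73%) and a median of -1.45 kb, against -0.098 kb over all genes. Whichever names are right, none of the 10 members had both deficient lists below both controls or above both, where 6.39% and 16.1% of genes did. Grouped by the stage in the deposited names, 7 members were higher and 2 lower in the control E11.5 list and the Sox9cKO-labelled list without overlap, beside 27.6% and 20.5% of genes.

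The flank beyond Evx2 held more peaks than the flank beyond Hoxd1 in each list. The counts were 42 and 31 in the control E11.5 list, so that 57.5% lay beyond Evx2 (Wilson 95% interval 46.1 to 68.2%, counting error only). They were 38 and 23 in the control E12.5 list, 62.3% (49.7 to 73.4%), and 45 and 29 in the Sox9cKO-labelled list, 60.8% (49.4 to 71.1%). In the Sox9null-labelled list they were 49 and 15, 76.6% (64.9 to 85.2%). The interval lay wholly above 50% in the Sox9null-labelled list and included 50% in the other 3. Among the upper 50% of peaks by score the share beyond Evx2 was 47.8% in the control E11.5 list and 48.0% in the Sox9cKO-labelled list, so that in these lists more of them lay beyond Hoxd1, and 66.7% in the control E12.5 list and 76.9% in the Sox9null-labelled list. Within 500 kb of the cluster the share beyond Evx2 was larger in every list, at 77.4, 79.3, 88.6 and 83.3% for control E11.5, control E12.5, Sox9null and Sox9cKO.

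Covered length separated the flanks, and the lists, further than the peak counts did. Beyond Evx2 the peaks covered 46.9 kb in the control E11.5 list, 110.4 kb in the control E12.5 list, 132 kb in the Sox9null-labelled list and 58.8 kb in the Sox9cKO-labelled list. Beyond Hoxd1 they covered 40.5, 46.9, 29.8 and 51.1 kb in that order. The ratio of the flank beyond Evx2 to the flank beyond Hoxd1 was 1.16 in the control E11.5 list and 1.15 in the Sox9cKO-labelled list, but 2.35 in the control E12.5 list and 4.44 in the Sox9null-labelled list. Over 1 Mb the flanks were thus close to even in one pair of lists and tilted toward Evx2 in the other. Within 500 kb the ratio was above 1 in every list, at 3.18 in the control E11.5 list, 4.70 in the Sox9cKO-labelled list, 9.12 in the control E12.5 list and 14.1 in the Sox9null-labelled list. With peaks near genes left out over 1 Mb it was 2.26, 2.48, 4.61 and 11.1 in that order, so the first pair was not even there, and the order of the pairs was kept. The lengths beyond Evx2 include the few kb by which the cluster peak itself runs past that gene.

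**Figure D3:**
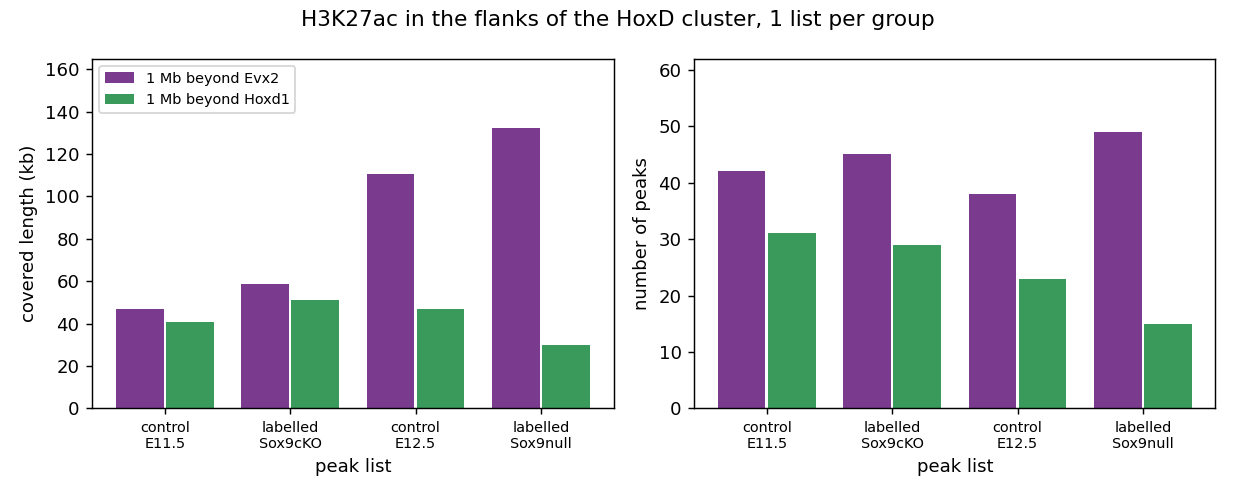
Covered length (kb, left) and number of peaks (right) in 1 Mb beyond Evx2 and 1 Mb beyond Hoxd1, as bars from 0, with no error bars since each group has 1 library. The covered length beyond Evx2 reaches 110.4 and 132 kb in the control E12.5 list and the Sox9null-labelled list, against 46.9 and 58.8 kb in the others, while the numbers of peaks there stay between 38 and 49.

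The longer coverage beyond Evx2 in the control E12.5 list and the Sox9null-labelled list went with wider peaks. Median peak width there was 856 bp in the control E11.5 list and 934 bp in the Sox9cKO-labelled list, against 2001 bp in the control E12.5 list and 1771 bp in the Sox9null-labelled list. Peaks of 3 kb or more, a limit chosen after the values were seen, numbered 1, 3, 13 and 12 in that order of lists. Beyond Hoxd1 such peaks numbered 3 in the control E11.5 list, 5 in the Sox9cKO-labelled list and 4 in each of the others. These counts did not follow the same division, and no genome-wide share is given beside them. Median width beyond Hoxd1 did follow it, at 879, 1096, 1704 and 1353 bp in that order of lists. So did the medians of the whole lists, at 1141, 1332, 1707 and 1778 bp. Wider peaks by median were thus not particular to the flank beyond Evx2.

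From control E11.5 to control E12.5 the covered length beyond Evx2 was 2.36 times as large, where the median of 1390 genome windows of 1 Mb was 1.20 times and 47 windows had a larger ratio. Beyond Hoxd1 the ratio was 1.16, with 748 windows larger, and its log2 value of 0.21 turned to -0.15 when each list was scaled to its total. The Sox9null-labelled list against control E11.5 gave 2.82 beyond Evx2 (7 of 1370 windows larger, median 1.08) and 0.735 beyond Hoxd1 (41 windows smaller). The Sox9cKO-labelled list against control E12.5 gave 0.533 beyond Evx2 (71 of 1460 windows smaller, median 0.955) and 1.09 beyond Hoxd1. Each ratio beyond Evx2 passed 1.5-fold, which 24.2% of windows did upward between controls, 13.1% did upward and 0.803% downward for Sox9null, and 14.2% did downward and 2.4% upward for Sox9cKO. By title, the deficient list at E11.5 thus had more marked length beyond Evx2 than its control, and the deficient list at E12.5 had less.

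As the deposited names have it, the differences beyond Evx2 were smaller in fold. For each deficient list the difference beyond Hoxd1 was larger in fold than by title. The Sox9cKO-labelled list against control E11.5 gave 1.26 beyond Evx2 and 1.26 beyond Hoxd1, near the median of 1.14 over windows. The Sox9null-labelled list against control E12.5 gave 1.20 beyond Evx2 (27 of 1474 windows larger, median 0.915) and 0.634 beyond Hoxd1 (37 windows smaller). The flank beyond Hoxd1 was in that comparison the one that passed 1.5-fold, as 4.41% of windows did downward and 0.204% upward.

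Along the desert beyond Evx2 the difference between the controls was spread over many stretches. Of its 20 bins of 50 kb, 9 were called with more coverage in control E12.5 than in control E11.5 and 1 with less, beside 23.7% and 6.9% of bins genome-wide. Beyond Hoxd1 the counts were 2 and 1. The bin 400 to 450 kb beyond Evx2 had 4.19 kb in the control E11.5 list, 19.3 kb in the control E12.5 list, 20.02 kb in the Sox9null-labelled list and 6.46 kb in the Sox9cKO-labelled list. The bin at 350 to 400 kb had 2.77, 15.9, 17.3 and 5.82 kb, and the bin at 550 to 600 kb had 3.31, 15.3, 18.0 and 5.50 kb. In each of these bins the control E12.5 list and the Sox9null-labelled list lay above both others without overlap. The bins were named for having the largest differences between the controls, and between the Sox9null-labelled list and control E11.5. Their separation therefore largely follows from the choice.

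For the Sox9null-labelled list against control E11.5, 12 bins beyond Evx2 were called with more and 1 with less (17.8% and 9.46% genome-wide), and beyond Hoxd1 1 with more and 5 with less. For the Sox9cKO-labelled list against control E12.5 the counts were 0 with more and 7 with less beyond Evx2 (11.6% and 18.4%), and 4 with more and 2 with less beyond Hoxd1. As the deposited names have it, the Sox9cKO-labelled list against control E11.5 gave 3 and 0 beyond Evx2 (12.3% and 3.08%) and 3 and 1 beyond Hoxd1. The Sox9null-labelled list against control E12.5 gave 4 and 1 beyond Evx2 (5.68% and 15.9%) and 0 and 4 beyond Hoxd1. Both deficient lists exceeded both controls in 2 bins beyond Evx2 and fell below both in 2 bins beyond Hoxd1, beside 11.8% and 7.29% of bins genome-wide. Grouped by the stage in the deposited names, 12 bins beyond Evx2 were higher in the control E12.5 list and the Sox9null-labelled list without overlap and 1 was lower, beside 26.0% and 18.9% of bins genome-wide, and beyond Hoxd1 2 were higher and 6 lower.

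**Figure D4:**
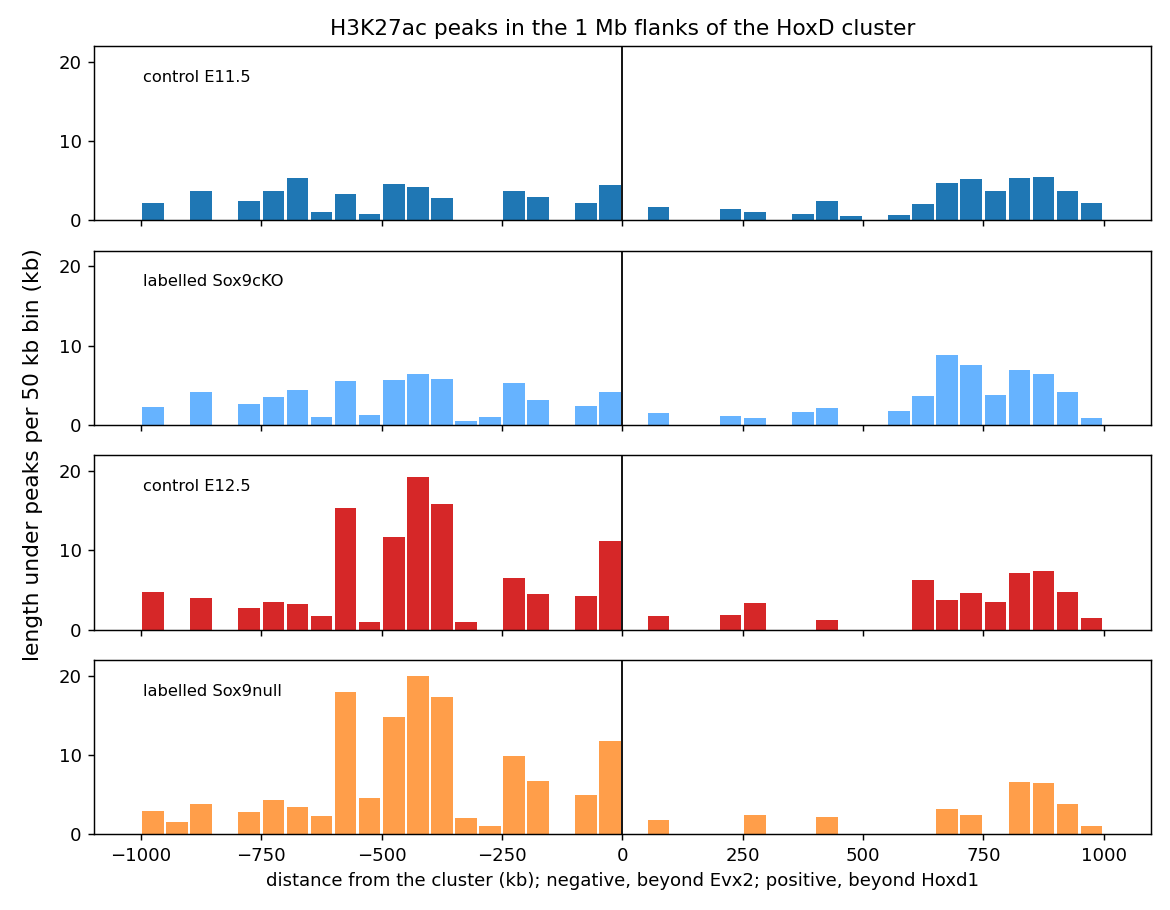
Length under peaks (kb) in bins of 50 kb against distance from the cluster, with a panel per list, negative distances beyond Evx2 and positive ones beyond Hoxd1. At 400 to 450 kb beyond Evx2 the bars reach 19.3 kb in the control E12.5 list and 20.02 kb in the Sox9null-labelled list, against 4.19 and 6.46 kb in the control E11.5 list and the Sox9cKO-labelled list.

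The first 3 regions below lie within the bins at 400 to 450, 550 to 600 and 350 to 400 kb beyond Evx2. Their division thus repeats that of those bins and is no separate measurement. The widest region beyond Evx2, 433 kb from it (74206040 to 74219670), lies partly over the noncoding gene Gm31534. It had 3.33 kb under peaks in the control E11.5 list, 13.3 kb in the control E12.5 list, 13.3 kb in the Sox9null-labelled list and 3.60 kb in the Sox9cKO-labelled list. A region 570 kb away (74071028 to 74082863), over no annotated gene, had 3.31, 10.5, 11.7 and 5.50 kb. One at 378 kb (74264624 to 74275170), likewise over none, had 2.77, 9.33, 10.6 and 4.86 kb. All 3 regions held a peak in every list, so by peak calls the lists differed there in the length covered. In the control E11.5 list the first region held separate short peaks, 1 of them scoring 53.64, near the lowest. Other regions had no peak in that list, such as 74299797 to 74303915, with 4.12 kb in control E12.5. A shorter mark and a mark under the caller's threshold cannot be told apart. Nearer to Evx2, a region 30.3 kb away (74615895 to 74622656) had 3.72, 6.29, 6.41 and 4.16 kb, a smaller spread.

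Beyond Hoxd1 the marked elements lay farther out. The first 50 kb and the stretch from 100 to 200 kb held no peak in any list, and Mtx2, a mitochondrial outer membrane gene and the first gene beyond Hoxd1, kept 1.54 to 1.74 kb with its flanks. The bins at 600 to 650 kb had 2.03 kb in the control E11.5 list, 6.27 kb in the control E12.5 list, 0 kb in the Sox9null-labelled list and 3.62 kb in the Sox9cKO-labelled list. Those at 700 to 750 kb had 5.23, 4.66, 2.39 and 7.51 kb in that order, and those at 750 to 800 kb had 3.62, 3.52, 0 and 3.75 kb. The Sox9null-labelled list was the lowest in each of these bins. They were named for the largest differences of that list from control E11.5 in this flank, so this largely follows from the choice. In that comparison 5 of the 20 bins beyond Hoxd1 were called with less coverage and 1 with more. A region 657 kb away was marked in all 4 lists at 3.09, 3.76, 3.16 and 3.87 kb, so not every element there was low in the Sox9null-labelled list.

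The presence of elements also divided by side. Merged over the 4 lists, 51 regions lay beyond Evx2, of which 20 (39.2%, Wilson 95% interval 27.03 to 52.9%) were marked in every list. Beyond Hoxd1 there were 39, of which 11 (28.2%, 16.5 to 43.8%) were, and genome-wide 40.1% of 49367 regions were. The 2 intervals overlap. Regions found in the control E11.5 list and the Sox9cKO-labelled list and in neither other list numbered 0 beyond Evx2 and 6 beyond Hoxd1, which is 15.4% of the regions there, against 6.45% genome-wide. Regions found in the control E12.5 list and the Sox9null-labelled list alone numbered 4 beyond Evx2 (7.84%) and 1 beyond Hoxd1 (2.56%), against 3.68% genome-wide. A further 2 regions, at 610.2 and 790.5 kb beyond Hoxd1, were missing from the Sox9null-labelled list alone (5.13%, against 3.44% genome-wide). With so few regions these shares rest on a handful each.

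**Figure D5:**
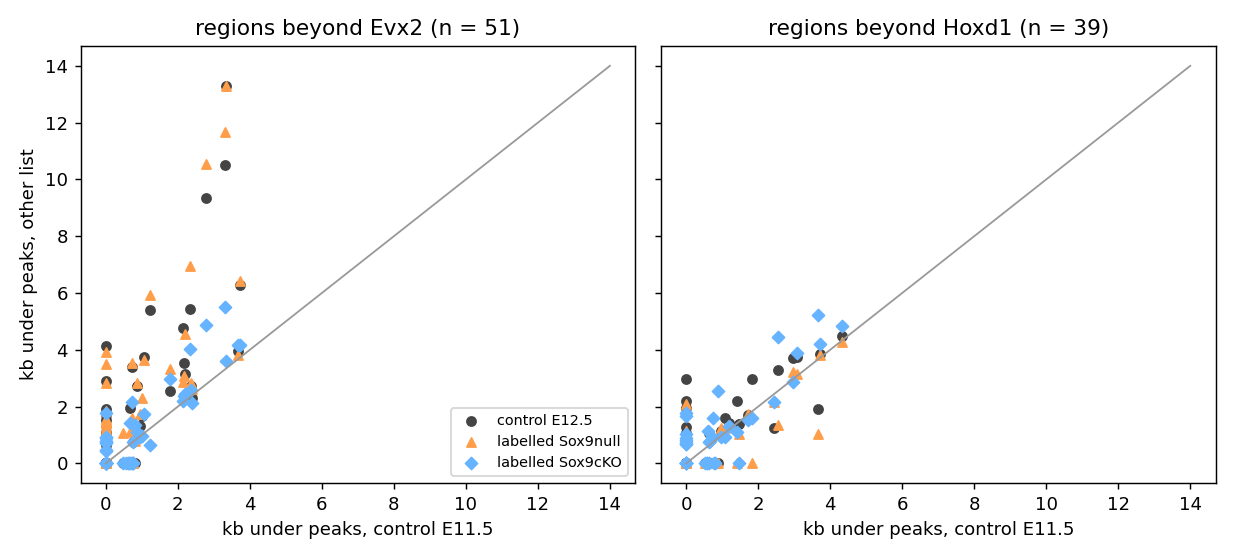
Each point is a merged region, with its length under peaks (kb) in the control E11.5 list on the horizontal axis and in another list on the vertical axis, for 51 regions beyond Evx2 (left) and 39 beyond Hoxd1 (right); the line marks equal lengths. Beyond Evx2 the points of the control E12.5 list and the Sox9null-labelled list rise far above the line, up to 13.3 kb against 3.33 kb.

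The genes within the flanks differed in how far they varied. Beyond Evx2, Lnpk, which encodes an endoplasmic reticulum protein and lies in the desert, had 2.17 kb in the control E11.5 list, 4.18 kb in the control E12.5 list, 4.92 kb in the Sox9null-labelled list and 2.37 kb in the Sox9cKO-labelled list. Atf2, a transcription factor gene that shares its window with the mitochondrial gene Atp5g3, had 4.71 to 5.43 kb, and Chn1, a signalling gene farther out, had 11.0 to 14.5 kb. Beyond Hoxd1, Hnrnpa3, which encodes an RNA-binding protein, had 4.33 to 6.66 kb, and Nfe2l2, the oxidative stress regulator, had 8.69 to 9.82 kb. Gm50595, a long RefSeq gene model in the outer part of that flank, had 16.9 kb in the control E11.5 list, 18.2 kb in the control E12.5 list, 10.2 kb in the Sox9null-labelled list and 24.7 kb in the Sox9cKO-labelled list. Lnpk was higher in the control E12.5 list and the Sox9null-labelled list without overlap, Hnrnpa3 was highest in the control E12.5 list, and Gm50595 was lowest in the Sox9null-labelled list. Atp5g3 or Atf2 carried the highest-scored peak beyond Evx2 in every list, and Hnrnpa3 held or tied for the highest score beyond Hoxd1. Desert peaks over no gene reached the 3 highest scores beyond Evx2 in the control E12.5 list, where the peak 30.3 kb from Evx2 scored 2228, and in the Sox9null-labelled list, where the peak in the region 570 kb away scored 1908.

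Lists of limb genes were set beside the cluster. Meis1 and Meis2, homeobox genes of the proximal limb, had 15.4 and 14.8 kb in the control E11.5 list, 10.6 and 10.9 kb in the control E12.5 list, 10.4 and 8.71 kb in the Sox9null-labelled list and 19.0 and 18.6 kb in the Sox9cKO-labelled list. Among 9 proximal genes, control E12.5 had 1 with more coverage than control E11.5 (Emx2) and 0 with less, the Sox9null-labelled list had 0 and 3 against control E11.5 (Meis2, Irx3, Irx5), and the Sox9cKO-labelled list had 3 and 1 against control E12.5 (Meis1, Meis2, Irx3; Pbx3). Among 8 distal genes the same counts were 1 and 1 (Tfap2b; Sall3), 0 and 1 (Sall3), and 1 and 0 (Sall3). Sall3 had 12.2 kb in the control E11.5 list and 11.9 kb in the Sox9cKO-labelled list. It had 3.19 kb in the control E12.5 list and 3.49 kb in the Sox9null-labelled list. It thus divided the lists in the direction of Meis1 and Meis2, which was not particular to proximal genes. Hoxa13, the HoxA counterpart of Hoxd13 in the digits, had 35.1 to 37.3 kb in the 4 lists. Among 9 hedgehog and posterior genes the counts by title were 2 and 0, 0 and 0, and 2 and 1. The Shh window, with the ligand that sets posterior identity, had 2.47 kb in the Sox9cKO-labelled list and 0 kb in the others. As the deposited names have it, the proximal counts were 2 and 0 for the Sox9cKO-labelled list against control E11.5 (Irx3, Emx2) and 0 and 2 for the Sox9null-labelled list against control E12.5 (Irx3, Irx5), so neither Meis1 nor Meis2 was called. The distal counts were then 0 and 0 in both comparisons, and the hedgehog and posterior counts 1 and 0 (Shh) and 0 and 1 (Hhip). These counts stand beside the same background percentages as the members. Between the controls 10.4% of all genes were called with more coverage and 6.62% with less. By title the shares were 7.02% and 9.22% for Sox9null, and 12.0% and 7.18% for Sox9cKO. As the deposited names have it they were 8.0% and 1.5% for Sox9cKO, and 2.69% and 7.73% for Sox9null.

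The genes whose 4 values were most like those of Hoxd13, by the sum of absolute log2 differences over the 4 lists, were Mrpl23 at 0.30, Trio at 0.31, Maml3 at 0.34, Pdzd2 at 0.41 and Poc1a at 0.43. All 5 lie on other chromosomes. Mrpl23, which encodes a mitochondrial ribosome protein, had 35.6, 47.3, 47.3 and 37.6 kb for control E11.5, control E12.5, Sox9null and Sox9cKO.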

How the data were processed

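H3K27ac was immunoprecipitated from mouse limb buds with an Abcam antibody and sequenced, with 1 library per group. The deposited lists give each peak's position and a score; the authors do not say what the score is, so it was used only within a list. The submitters' processing notes name the build mm10, deepTools and CASAVA 1.8, and the names of the peaks point to MACS. Aligner, caller settings, use of an input and depth: not given in the sources used here. Peaks were called per sample. The other 20 of 24 libraries were not analysed here.

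Genes and promoters came from RefSeq tables of GRCm38.p6, the same build. Covered length was the merged peak length over a gene body plus 20 kb on each side, over 50 kb bins, or over 1 Mb flanks and genome windows. Values of 2 lists were called different at 1.5-fold and 1 kb or more (1 Mb windows: 1.5-fold). Background shares used genes or bins covered in at least 1 of the lists compared, and 1 Mb windows with at least 10 kb in both. Regions were the union of the 4 lists. Wilson intervals cover counting error only. Named items were all members, flank genes, marker and pathway lists, the 3 widest and 3 highest-scored peaks and the 3 most different bins per flank, and the 5 genes most like Hoxd13 more than 2 Mb away. Members and lists were chosen with earlier results of these data known. Computation used scipy 1.17.1, pandas 2.3.3 and numpy 2.4.6 under Python 3.11.15, with matplotlib 3.10.9 for plots, and the coverage and calling steps were tested on simulated data. Alternatives changed the flank size, the gap joined, the gene window, the score limit, the number of peaks, scaling, peaks near genes and the assignment of the deficient lists.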

Additional observations from a re-analysis of the deposited data

Results flagged for a closer look

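By title, the deficient list differed from its control in opposite directions at the 2 stages for 5 measures. With 1 library in each group the difference between the stages was not tested. Deficient minus control, first at E11.5 and then at E12.5, the length beyond Evx2 was 85.4 and -51.6 kb and the length beyond Hoxd1 was -10.8 and 4.14 kb. The length over the cluster was -9.31 and 8.0 kb. The position of the border beyond Evx2 was -2.85 and 5.88 kb, so the domain reached farther out at E11.5 and less far at E12.5, and the position of the border toward Hoxd1 was -2.29 and 2.23 kb. All 5 depend on which deficient list belongs to which sample, where the titles and the deposited names disagree. Each measure but the length beyond Hoxd1 set the control E11.5 and Sox9cKO-labelled lists apart from the other lists without overlap. The length beyond Hoxd1 was 40.5, 46.9, 29.8 and 51.1 kb for control E11.5, control E12.5, Sox9null and Sox9cKO. The forelimb gene Tbx5, with 31.7, 3.76, 0 and 32.6 kb in that order, divides the lists as the measures without overlap do. Summed markers of skeletal muscle, endothelium and erythroid cells do so too, though Gata1, Klf1 and Kdr singly do not. The hindlimb genes Tbx4 and Pitx1, and each of the 4 limb mesenchyme markers, divide the lists in the direction opposite to Tbx5. The part of all these genes in these differences was not tested.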

How the results depend on the processing

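Of 135 values recomputed under another setting, 109 stayed on their side of the threshold or within the interval or limit around the main value. Some of these, not past the threshold, changed direction: with the deficient lists exchanged, log2 ratios went from -0.44 to 0.33 beyond Hoxd1 and from -0.25 to 0.04 over the cluster for E11.5, and from 0.20 to -0.08 over the cluster for E12.5; with scaling, control E12.5 against control E11.5 beyond Hoxd1 went from 0.21 to -0.15. Within 500 kb of the cluster the percent of flank peaks beyond Evx2 was 77.4, 79.3, 88.6 and 83.3% for control E11.5, control E12.5, Sox9null and Sox9cKO, and away from genes it was 69.4, 74.4, 87.2 and 74.1%; among the upper 50% of peaks by score it was 47.8% for control E11.5 and 48.0% for Sox9cKO, below the even share. Beyond Hoxd1 the regions marked in all 4 lists fell to 13.6% away from genes, where a long RefSeq model, Gm50595, removes many peaks. With the deficient lists exchanged, the log2 ratio to the control of the titled stage was 0.33 beyond Evx2 for E11.5 (by title 1.5), 0.26 beyond Evx2 for E12.5 (by title -0.91) and -0.66 beyond Hoxd1 for E12.5 (by title 0.12), and called members went from 3 to 0 at both stages. Scaling each list to its total gave -0.64 beyond Hoxd1 for Sox9null and 5 members with less coverage, both for control E12.5 and for Sox9null against control E11.5. With the gene window at 5 kb, 1 member had more coverage in each of these comparisons. The cause was not tested. Leaving out each list in turn, the members with both deficient values below the controls numbered 0 to 7, and above them 0 to 6; without the Sox9cKO-labelled list 7 lay below, and without the Sox9null-labelled list 6 lay above, where all 4 lists gave 0 and 0. No paired analysis was possible because each group has 1 library and the results come from no test. The unknown depth limits every count and width, and a stretch with no peak may hold mark under the caller's threshold.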
